A study of Mus musculus with 8 samples.

Results

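The germline and meiosis genes examined here are 35 mouse genes whose proteins make germ cell RNA granules, the meiotic chromosome axis, meiotic recombination and the piRNA defence against transposons. They were chosen by name, and each was read in mouse induced pluripotent stem (iPS) cells on the brightest Affymetrix probe set, by the mean of 8 arrays, annotated to that symbol alone. Such a probe set was found for 33 of the 35, out of 18193 genes read this way, and Fkbp6 and Rpl10l had none. The arrays came from 8 iPS cell clones, 1 array each: 4 derived with ascorbic acid (vitamin C) in the medium and 4 without. All 8 descended from embryonic fibroblasts of Col-OKSM mice, in which doxycycline switches on Oct4, Sox2, Klf4 and cMyc. Every clone was grown with doxycycline, LIF and serum on irradiated feeder fibroblasts and was preplated to remove feeders before RNA extraction. The labels number the clones 1 to 4 within each group and call them biological replicates. Whether they came from separate embryos is not given there, so p-values describe only the spread among these clones.

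In the mouse, many germline genes are kept silent outside germ cells by DNA methylation of CpG-rich promoters, and in pluripotent cells also by a Polycomb complex that reaches them through E2F6 and the E-box-binding pair MGA and MAX. Ascorbic acid supports TET enzymes, which oxidise methylated cytosine, and germline genes are a known class of targets of that loss of methylation in embryonic stem cells. Neither methylation nor protein binding was measured in these clones. The question the comparison bears on is whether clones derived with the vitamin differ in their RNA from these genes.

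Promoters of the group are CpG-rich, and 4 are shown because they span its array signals: Mael and Sycp3 were bright in every clone, Dazl was bright in all but 1, and Tex101 was dim in all. Each is the 200 bases before the transcription start, from RefSeq on GRCm38.p6, 5′ to 3′ on the gene's strand, with each CpG in capitals.
Dazl (chr17:50293621-50293820, minus strand): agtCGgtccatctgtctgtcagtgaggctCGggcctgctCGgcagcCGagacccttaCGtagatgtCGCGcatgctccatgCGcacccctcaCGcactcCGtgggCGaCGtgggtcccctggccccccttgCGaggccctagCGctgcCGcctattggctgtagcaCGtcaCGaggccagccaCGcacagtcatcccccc
Mael (chr1:166238745-166238944, minus strand): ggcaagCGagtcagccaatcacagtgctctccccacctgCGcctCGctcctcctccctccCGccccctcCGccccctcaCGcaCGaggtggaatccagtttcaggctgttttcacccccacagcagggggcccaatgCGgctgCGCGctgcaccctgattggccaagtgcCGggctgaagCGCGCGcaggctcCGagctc
Sycp3 (chr10:88459387-88459586, plus strand): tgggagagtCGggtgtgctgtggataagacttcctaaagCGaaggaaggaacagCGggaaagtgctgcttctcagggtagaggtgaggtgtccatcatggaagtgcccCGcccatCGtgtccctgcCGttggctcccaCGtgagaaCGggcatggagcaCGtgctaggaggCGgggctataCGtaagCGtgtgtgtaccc
Tex101 (chr7:24672051-24672250, minus strand): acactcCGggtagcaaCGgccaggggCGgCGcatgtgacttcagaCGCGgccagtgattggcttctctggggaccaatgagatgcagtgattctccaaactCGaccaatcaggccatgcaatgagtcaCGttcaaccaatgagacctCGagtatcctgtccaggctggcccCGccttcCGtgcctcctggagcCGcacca
These stretches hold 18 CpG in Dazl, 15 in Mael and 12 each in Sycp3 and Tex101, so the dim Tex101 had as many as the bright Sycp3.

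RefSeq held a promoter window, 250 bases before to 50 after the start, for 32 of the 35 genes, all but Tex15, Piwil2 and Spo11. The windows held a median of 20.5 CpG (range 6 to 41), taking the most CpG-rich window where a gene has several. The median was 8 over all 27025 genes with a window and 21 over the 10609 of them that were tested on the array. A window with at least 10 CpG was present in 30 of the 32 (93.8%), against 45.8% of all genes and 82.0% of those tested on the array. The median of the germline genes thus lay above that of all genes and close to that of the genes tested on the array.

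**Figure D1:**
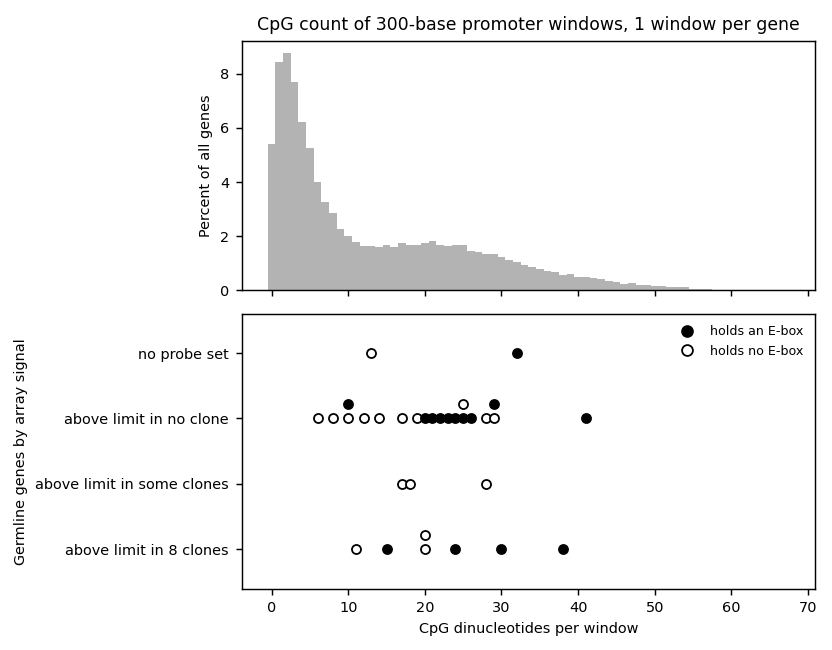
CpG dinucleotides in the 300-base promoter window of each gene, as a histogram in percent of all 27025 genes (top) and as 1 point per germline gene (bottom), grouped by whether the array signal passed the limit of 387 set by genes of other tissues. Filled points mark windows with the E-box CACGTG, which lie among both the bright genes and those above that limit in no clone.

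The E-box CACGTG, the sequence bound by MGA with MAX, stood in the windows of 15 of the 32 genes (46.9%), against 8.09% of all genes and 11.5% of genes tested on the array. CACGTG reads alike on both strands. The E2F core GCGGGAA, searched on both strands, stood in 10 (31.2%), against 5.29% of all genes and 9.43% of those tested. Both motifs stood in 6 genes and neither in 13. Whether matches of the motifs shared bases was not checked. Over all 32851 windows, counted singly, 7.15% held the E-box and 4.60% the E2F core. A match is a run of letters and was not tested as a binding site.

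E-boxes are shown with 15 bases on either side, in capitals, for 6 of these genes whose signals ran from very dim to bright. All lie upstream of the start: counted in bases from it, the E-box begins at -223 in Mael, -64 and -43 in Sycp3, -94 in Sycp1, -93 in Tex12 and in Slc25a31, and -55 in Stk31.
Mael (chr1:166238947-166238982, minus strand): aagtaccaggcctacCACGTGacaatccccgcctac
Sycp3 (chr10:88459508-88459543, plus strand): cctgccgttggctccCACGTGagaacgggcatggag
Sycp3 (chr10:88459529-88459564, plus strand): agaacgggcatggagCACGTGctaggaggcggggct
Sycp1 (chr3:102936174-102936209, minus strand): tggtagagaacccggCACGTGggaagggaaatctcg
Tex12 (chr9:50561341-50561376, minus strand): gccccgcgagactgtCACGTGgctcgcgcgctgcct
Slc25a31 (chr3:40708763-40708798, plus strand): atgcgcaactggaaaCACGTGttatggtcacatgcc
Stk31 (chr6:49395469-49395504, plus strand): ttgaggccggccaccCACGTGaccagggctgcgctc
Of the 7 bright genes with a window, 4 held the E-box, as did 10 of the 20 that passed the brightness limit described below in no clone. The E2F core stood in 5 of the 7 (71.4%) and in 4 of the 20 (20.0%). The difference between these shares was not tested.

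Whether a gene was on was judged against 2 limits, because the deposited values carry no detection call that was used here. The dim limit is a signal of 93.7, below which 40% of all probe sets lie by their mean. The other is a signal of 387, the 95% quantile of 42 genes typical of other tissues, such as pancreas, muscle and skin. Of those tissue genes 2 (4.76%), Apoa2 and Actn3, lay above 387 in all 8 clones, a share that follows largely from how that limit was set. Above the dim limit in all 8 clones lay 20 (47.6%). Passing the dim limit alone therefore says little about expression. Signals of different probe sets also depend on the probes, so they do not rank RNA amounts between genes.

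Of the 33 germline genes, 8 lay above the limit of 387 in every clone: Tdrd12, Sycp3, Hsf2bp, Stag3, Mael, Tex14, Tex15 and Ddx4. A further 4 crossed it in some clones, Dazl and Sohlh2 in 7 of 8 and Piwil2 and Dmc1 in 2 of 8, and 21 lay below it in all. The group's 24.2% above this limit compares with 39.9% of all 18193 genes. At the dim limit 21 were above in all clones (63.6%, against 64.6% of all genes), 7 in some and 5 in none. The 5 below it throughout were Sycp2, Tex101, Tdrd1, Dpep3 and Msh4. The lowest single readings of the 8 bright genes were 506 for Tex15 and 546 for Ddx4. Nearest outside were Dazl and Sohlh2, with lowest readings of 311 and 351, both in clone 4 with ascorbic acid. Without that clone 10 genes lay above the limit throughout.

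**Figure D2:**
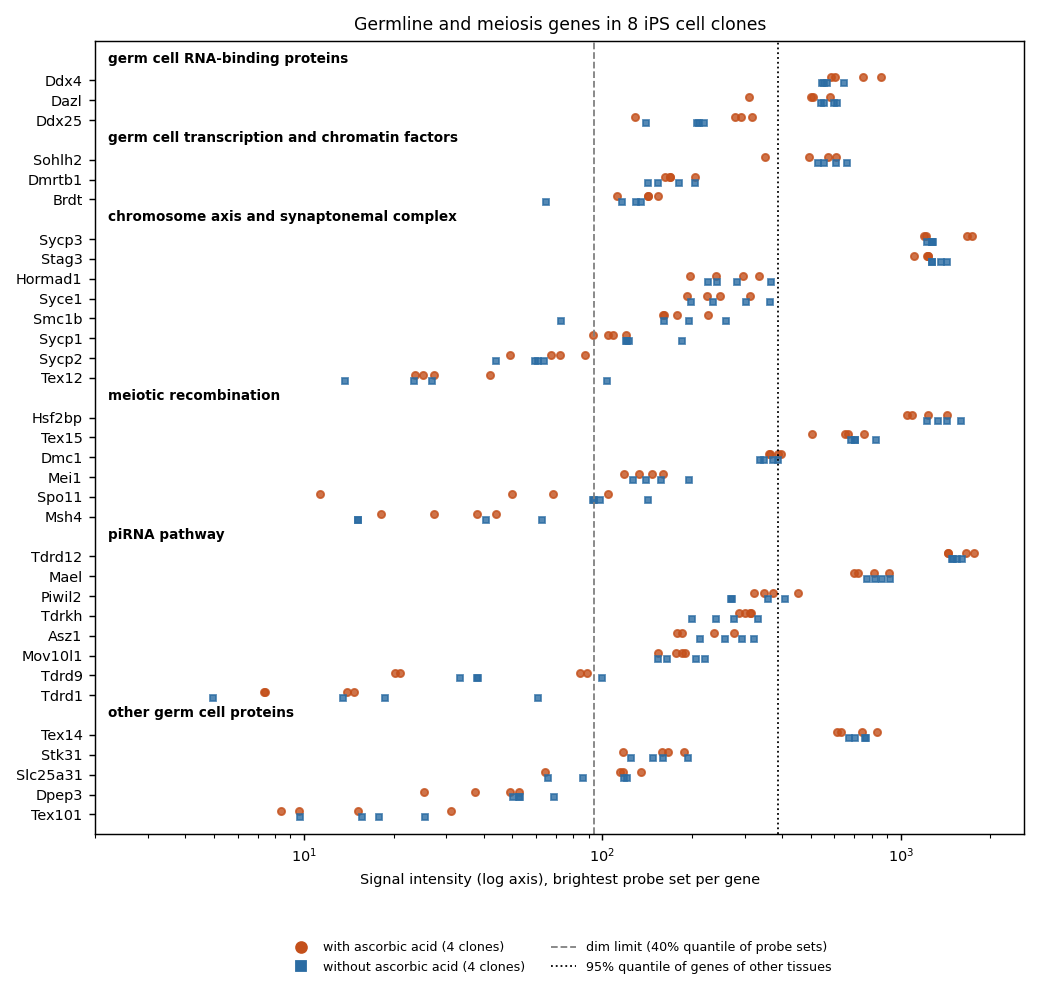
Signal of the brightest probe set of each of 33 germline and meiosis genes (log axis) in 4 clones with (circles) and 4 without ascorbic acid (squares), grouped by role, with the limits at 93.7 (dashed) and 387 (dotted). The groups overlap in every gene but Stag3, and 8 genes lie right of the dotted line in all clones.

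Pluripotency markers were bright in all clones, and so were many fibroblast markers. All 10 pluripotency markers were above 387 in every clone, with mean signals from 3868 to 26236. No marker of spermatids or oocytes (0 of 20) and none of gonadal somatic cells (0 of 10) was above it in all clones, the highest mean signals being 281 and 351. Of 25 fibroblast markers with a probe set, 12 (48%) were above it in all clones, against 39.9% of all genes. Their highest mean signal was 12703, for Vim. Array medians ran from 134 to 156. Of 21 tested fibroblast markers, 17 were lower in the group given ascorbic acid, with a median log2 difference of -0.18. An unadjusted limma p below 0.05 was found for 7 of the 21 (33.3%, against 5.83% of all genes tested), 6 of them lower and 1 higher, and 0 passed after adjustment over all genes. The summed signal of all 25 fibroblast markers with a probe set was 49742 to 61320.3 with and 58373 to 62438 without the vitamin. Postn, a matrix protein of fibroblasts, read 317 ± 33.9 with and 416 ± 22.8 without, and Col1a1 2628 ± 660.3 and 3216 ± 241 (SD, n = 4 each). The part of feeder RNA in the differences below was not tested. Twist1, a mesenchymal transcription factor, was at 0.52 log2 (limma, adjusted p = 0.749). Of the 10 pluripotency genes 9 were lower with ascorbic acid. Pou5f1, Nanog and Dppa5a were at -0.14, -0.12 and -0.25, none past the threshold used below. Of the late germ cell genes Prm2, a sperm protamine, was at 0.34 and Zp2, of the egg coat, at -0.39, and of the gonadal genes Nr5a1 was at 0.54 and Inha at 0.12. Of the tissue genes described above, Gh, growth hormone, was at -0.37 and Pga5, a pepsinogen, at -0.31. None of these passed either.

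No germline gene differed between clones derived with and without ascorbic acid past the threshold. The test was limma on log2(signal + 16), with p-values adjusted by Benjamini-Hochberg over the 13125 genes above the dim limit by their mean and a threshold of 0.05. Of the 33 germline genes 25 were above it and 8 were not: the 5 named above with Tdrd9, Tex12 and Spo11. Over all genes 3 of 13125 passed (0.0229%), Meg3, Rian and Tcf15, and of the 25 germline genes 0 passed. Their adjusted p-values were 0.828 or more. Without adjustment, 1 of the 25 (4.00%) had a limma p below 0.05, against 765 of all genes tested (5.83%). The signals of the groups did not overlap in 1 of the 25, against 476 of all genes (3.63%).

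Of the 25, 12 were higher and 13 lower with ascorbic acid, with a median log2 difference of -0.05, beside -0.0042 for all genes tested. Single differences ran from -0.31 for Sycp1 to 0.31 for Ddx25. The 95% intervals of all 25, not adjusted for their number, lay within -1 to 1 on this scale, the widest reach being 0.85 for Ddx25. A missed threshold does not show that the groups were alike, and the scale understates changes of dim genes. In bulk RNA, fewer cells with a transcript and less transcript per cell cannot be told apart.

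**Figure D3:**
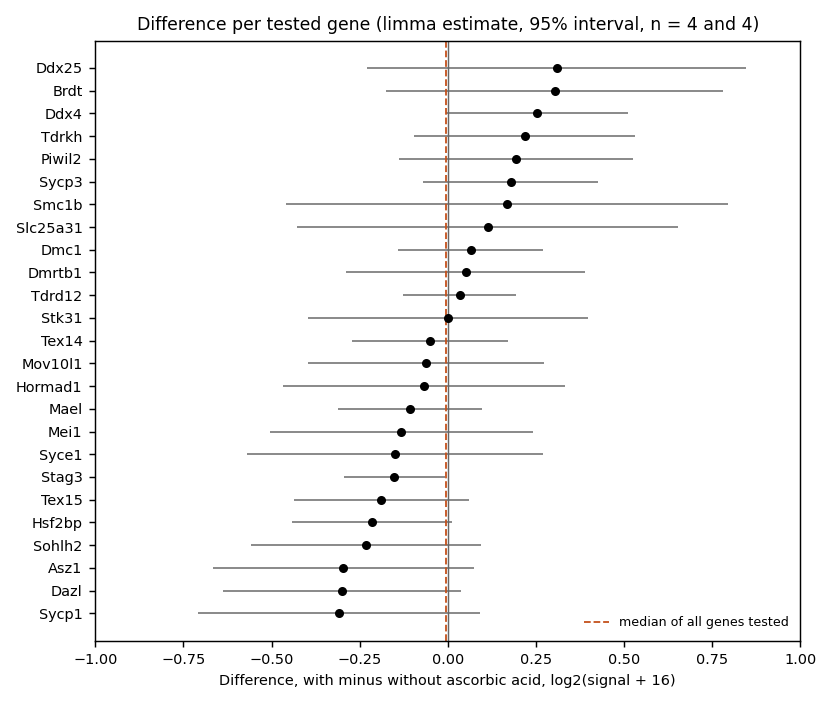
Difference in log2(signal + 16), with minus without ascorbic acid, for the 25 tested germline genes, with limma estimates as points and 95% intervals as bars (4 clones per group). The points run from -0.31 to 0.31, and the dashed line at -0.0042 is the median of all genes tested.

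Among germ cell RNA-binding proteins, Dazl, which promotes translation in germ cells, differed in the direction of less RNA with the vitamin. It read 581, 510.0, 499 and 311 in clones 1 to 4 with ascorbic acid and 598, 610.2, 539 and 554 without. Clone 4 with the vitamin was the lowest and the groups overlapped. The log2 difference was -0.30 (95% interval -0.64 to 0.04; limma, adjusted p = 0.844). The other Dazl probe set also read lowest in that clone, at 332, and highest in clone 2 without ascorbic acid, at 686, as the first did. Without clone 4 of the group with ascorbic acid the log2 difference was -0.12.

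Ddx4, the RNA helicase also called Vasa, went the other way. It read 857, 586, 603 and 747 with and 567, 552, 645 and 546 without ascorbic acid. Clones 1 and 4 with the vitamin were the highest of all, and the other 2 lay among those without. The log2 difference was 0.25 (-0.01 to 0.51; limma, adjusted p = 0.844), or 0.15 without clone 1 of the group with ascorbic acid. Ddx25, a testis RNA helicase, read 319, 292, 278 and 129 with and 211, 140.2, 219.9 and 208 without. Here 3 clones with ascorbic acid were highest and the remaining 1, clone 4, was the lowest of all 8. Its log2 difference was 0.31 (-0.23 to 0.85; limma, adjusted p = 0.887), and 0.59 without that clone.

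Of the transcription and chromatin factors, Sohlh2, a helix-loop-helix factor of early spermatogonia and oocytes, read 494, 608, 573 and 351 with and 662, 608, 527 and 553 without ascorbic acid. As for Dazl, clone 4 with the vitamin was the lowest, and the log2 difference was -0.23 (-0.56 to 0.09; limma, adjusted p = 0.847), or -0.07 without that clone. Brdt, the testis bromodomain protein, was near the dim limit at 112 to 154 with and 64.6 to 135 without. Its log2 difference was 0.30 (-0.17 to 0.78; limma, adjusted p = 0.870), and its other 2 probe sets, both under the dim limit, read 50.2 against 45.5 and 45.5 against 39.8. Dmrtb1, a factor at the switch from mitosis to meiosis, read 162 to 205 with and 143 to 205 without.

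The chromosome axis and synaptonemal complex, which hold and zip paired meiotic chromosomes, held Sycp3 and Stag3, both bright in every clone. Sycp3, an axis protein, read 1733, 1212, 1199 and 1674 with and 1229, 1271, 1272 and 1287 without ascorbic acid. Clones 1 and 4 with the vitamin stood above all others, and clones 2 and 3 below all without. The log2 difference was 0.18 (-0.07 to 0.43; limma, adjusted p = 0.847). It was 0.088 without clone 1 and 0.10 without clone 4 of the group with ascorbic acid. The SD was 288 with and 25.01 without the vitamin.

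Stag3, a subunit of meiotic cohesin, read 1227, 1234, 1234 and 1109 with and 1363, 1275, 1434 and 1275 without. It was the only tested gene of the group whose clones with ascorbic acid all lay on one side of those without. The means of 1201 ± 61.6 and 1337 ± 77.2 (SD, n = 4 each) differed by -0.15 log2, with a 95% interval of -0.30 to -0.01. The limma p was 0.0393 unadjusted and 0.828 adjusted.

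Sycp1, which forms the transverse filaments, read 108, 120.2, 104 and 93.2 with and 123, 121, 186 and 120.0 without, a log2 difference of -0.31 (-0.71 to 0.09; limma, adjusted p = 0.844). The groups overlapped only where clone 2 with ascorbic acid exceeded clone 4 without by less than 1 unit of signal. Hormad1, an axis protein of the meiotic checkpoint, Syce1, of the central element, and Smc1b, of meiotic cohesin, had log2 differences of -0.07, -0.15 and 0.17. Smc1b was the most uneven of the tested genes, at 72.7 in clone 3 and 259.7 in clone 1, both without ascorbic acid. Sycp2, another axis protein, and Tex12, of the central element, were not tested, with means over 8 clones of 63.1 and 35.7.

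Of the genes for meiotic recombination, Hsf2bp, which works with BRCA2 at meiotic breaks, was bright. It read 1053, 1434, 1236 and 1092 with and 1428, 1596, 1339 and 1225 without ascorbic acid, with 2 clones with the vitamin below all others. The log2 difference was -0.22 (-0.44 to 0.01; limma, adjusted p = 0.844), and its dimmer probe set read 91.1 ± 12.5 with and 124 ± 17.3 without (SD, n = 4 each). Tex15, needed for recombination and transposon silencing in the testis, read 649, 506, 665 and 752 with and 705, 684, 701 and 829.6 without. Its log2 difference was -0.19 (-0.44 to 0.06; limma, adjusted p = 0.844).

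Dmc1, the meiotic strand-exchange recombinase, was the most even of the tested genes on the brightest probe set, at 363 to 398 with and 337 to 387 without. Its log2 difference there was 0.06 (-0.14 to 0.27). The other Dmc1 probe set was less even, at 295 to 426 with and 309 to 365 without, a log2 difference of 0.16. Mei1, needed to form meiotic breaks, read 118 to 159.6 with and 127 to 195 without. Spo11, the enzyme that makes those breaks, was under the dim limit by its mean and not in the test over genes. It read 68.2, 11.3, 49.9 and 104 with and 93.1, 98.4, 142 and 93.6 without, so the clones overlapped at signals where the array resolves little. Msh4, which stabilises crossover intermediates, read 15.2 to 62.7 over the 8 clones.

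The piRNA pathway, in which PIWI proteins carry small RNAs against transposons, held the brightest probe set of the group. Tdrd12, a Tudor-domain helicase, read 1447, 1443, 1659 and 1766 with and 1489, 1551, 1608 and 1499.5 without ascorbic acid. The log2 difference was 0.03 (-0.13 to 0.19). Mael, a piRNA biogenesis factor of germ granules, read 912, 813, 700.1 and 719 with and 818, 869, 774 and 920.0 without, a difference of -0.11 (-0.31 to 0.10). In Tdrd12 all 4 clones without the vitamin lay between the 2 lower and the 2 higher clones with it, and in Mael the groups interleaved.

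Piwil2, the PIWI protein Mili, read 323 to 453 with and 269.8 to 410.3 without, a log2 difference of 0.19 (-0.14 to 0.53; limma, adjusted p = 0.885). Tdrkh, a Tudor protein of mitochondria, read 287 to 314 with and 201 to 332 without, and its difference was 0.22 (-0.10 to 0.53; limma, adjusted p = 0.850). Asz1, a mitochondrial scaffold of piRNA biogenesis, was at -0.30 (-0.67 to 0.07; limma, adjusted p = 0.844) on its brighter probe set, while the other read 109 ± 18.1 with and 98.7 ± 29.2 without (SD, n = 4 each), the opposite order. Mov10l1, the piRNA helicase, was at -0.06. Tdrd9, at a mean of 53.0, and Tdrd1, at 17.7, were dim.

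Of the remaining germ cell proteins, Tex14, of the bridges between germ cells, was bright at 610.3 to 832 with and 669.7 to 768 without ascorbic acid, a log2 difference of -0.05 (-0.27 to 0.17). Stk31, a Tudor-domain kinase-like protein, read 157 ± 29.7 with and 157 ± 28.9 without (SD, n = 4 each) on an _x_at probe set, a kind open to cross-hybridisation. Slc25a31, the germ cell ADP/ATP carrier, crossed the dim limit in 5 of 8 clones. Tex101, a surface protein of germ cells, and Dpep3, a testis dipeptidase, had means over 8 clones of 16.6 and 48.7.

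Across clones, no single direction joined the group. The median deviation of the 25 tested genes from their own means over 8 clones was 0.090, 0.0018, -0.023 and -0.082 log2 in clones 1 to 4 with ascorbic acid. It was -0.029, 0.010, 0.048 and 0.00046 in those without. Clone 4 with the vitamin was the lowest clone for 8 of the 25 genes, Dazl, Sohlh2 and Ddx25 among them. In the same clone Sycp3 and Ddx4 were second highest, and Tdrd12 was highest of all. Its array median of 151 lay within the range of the others.

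**Figure D4:**
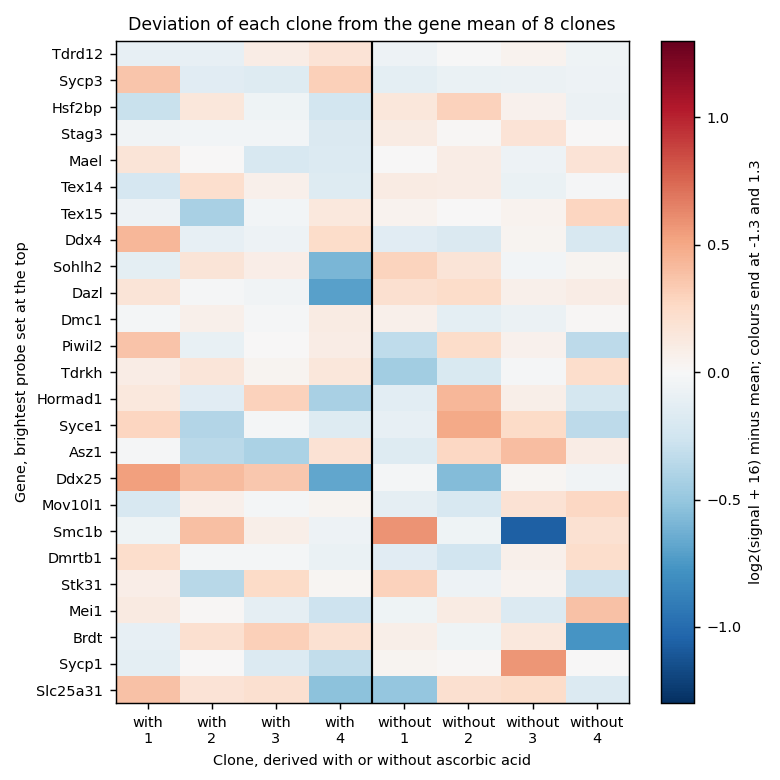
Deviation of each clone from the gene's mean over 8 clones, in log2(signal + 16), for the 25 tested genes ordered by signal, with clones derived with ascorbic acid left of the line. Dazl, Sohlh2 and Ddx25 are low in clone 4 with the vitamin, where Sycp3 and Ddx4 are high.

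The 8 bright genes varied more among the clones with ascorbic acid in 7 of 8 cases, Stag3 being the exception. Their median SD was 0.20 log2 with and 0.099 without, and over the 7263 genes that passed the same limit in all clones it was 0.11 and 0.10. The SD was larger with the vitamin in 54.8% of those 7263 genes, and in 14 of all 25 tested germline genes (56.0%, against 53.5% of all genes tested). Over those 25 the median SD ran the other way, at 0.20 with and 0.23 without, and over all genes tested it was 0.14 in both groups. The difference in spread was not tested.

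A wider list of 58 germline, meiosis and piRNA genes gave the same count of calls. Of these 47 had a probe set and 38 were tested, of which 21 were higher and 17 lower with ascorbic acid, with a median log2 difference of 0.04. None passed over all genes (limma, adjusted p of 0.749 or more). An unadjusted limma p below 0.05 was found for 3 (7.89%), against 5.83% of all genes tested. Majin, which ties meiotic telomeres to the nuclear envelope, had the smallest p. It read 101, 95.1, 68.4 and 127 with and 132, 174, 167 and 167 without, so the groups did not overlap, with a log2 difference of -0.65 (-1.07 to -0.23; limma, adjusted p = 0.749). Rec114, of the break-forming machinery, read 355 ± 69.3 with and 436 ± 27.4 without (SD, n = 4 each). The third, Tdrd7, a Tudor protein of germ cell granules named after its values were seen, read 95.1 ± 28.2 with and 138 ± 16.7 without (SD, n = 4 each), a log2 difference of -0.50 (-0.97 to -0.03; limma, adjusted p = 0.826). Besides Majin, the groups did not overlap in Boll, lower with ascorbic acid at -0.33 log2, and Figla, higher at 0.35. Both were named after their values were seen. Over all genes tested the groups did not overlap in 3.63%.

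Of 28 regulators of DNA methylation and chromatin that act on germline genes, silencers as well as TET enzymes, 25 were above 387 throughout. Tet3 was under the dim limit in every clone, at 24.6 to 88.4. Of the regulators 27 were tested, and 0 passed the threshold. Tet1, a methylcytosine oxidase, read 6390.2, 5948, 5260.0 and 6085 with and 5437, 5326, 4886 and 4954 without ascorbic acid, a log2 difference of 0.20 (0.05 to 0.35; limma, adjusted p = 0.759). Smchd1, a chromatin protein of long-term silencing, was at 0.23 (0.04 to 0.42; limma, adjusted p = 0.788) on its brightest probe set and at -0.029 with the mean of its probe sets. Mga and E2f6, whose motifs are counted above, were at 0.13 (-0.04 to 0.30) and 0.03 (-0.14 to 0.20). Of 9 markers of primordial germ cells, the embryonic precursors of gametes, 7 (77.8%) were above 387 in every clone. Of the 8 tested, 0 passed. Prdm14, a germ cell specification factor also expressed in embryonic stem cells, read 618 ± 31.1 with and 694 ± 86.2 without, and Dppa3, a maternal protein that guards methylation, 1043 ± 81.4 and 1109 ± 339 (SD, n = 4 each). Ifitm3, a membrane protein of these precursors, was at -0.16 log2 (limma, adjusted p = 0.844).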

How the data were processed

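The authors deposited linear signal intensity values for 8 Affymetrix mouse 430_2 arrays. The submitters' processing notes name GCOS without version or settings. The mean of each array after trimming 2% at each end is 500. Of 45101 probe sets, 64 controls were left out, 34945 are annotated to 1 symbol, 932 to several and 9160 to none (not named here). Signals were analysed as log2(signal + 16) with the deposited scaling, since array medians on that scale spanned 0.199, under the limit of 0.2 past which quantile normalization was to be the main setting. On log2(signal) the span was 0.221, past that limit, so the choice of main setting rests on the scale; quantile normalization is among the alternatives. Probe sets with the lowest 40% of means were left out of the test. Fits used limma 3.58.1 (lmFit, eBayes with intensity trend, two-sided) in R 4.3.3 and were tested on simulated data. Groups and clone numbers came from the labels. No 2 arrays were duplicates (smallest median absolute log2 difference 0.194).

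Every gene of the group is named; other lists give up to 4 genes past the threshold, or else the 2 with the smallest p, and Pou5f1, Nanog, Dppa3, Col1a1 and Postn in any case. The members, lists, limits and motifs were chosen with earlier results of these data known. Genes named outside the rule were chosen for their motifs (Mga, E2f6) or after their values were seen (Tdrd7, Boll, Figla, Tet3, Apoa2, Actn3, Meg3, Rian, Tcf15). The alternatives tried changed the scaling (quantile or median), the pseudocount (1 or 64), the filter (none or 60%), the probe sets (averaged per gene, or without _s_at and _x_at) and the fit (eBayes without trend or robust, array weights, a replicate block), or left out 1 clone. Promoter windows are RefSeq's on GRCm38.p6, matched by symbol. Drawings used matplotlib 3.10.9.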

Additional observations from a re-analysis of the deposited data

Results flagged for a closer look

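In groups of 4 clones, a value was singled out where its gap to the nearest other passed Dixon's 95% critical value as a share of the group's range, which chance gives in about 1 of 20 groups. Germline genes so marked were Sycp1 (186 in clone 3 without ascorbic acid, others 120.0 to 123), Tdrd9 (100.1 in clone 1 without, others 33.4 to 38.4), Tex12 (103 in clone 3 without, others 13.8 to 27.0) and Tex15 (829.6 in clone 4 without, others 684 to 705). The rest were Dpep3 (68.8 in clone 3 without, others 50.4 to 53.2), Stag3 (1109 in clone 4 with, others 1227 to 1234), Spo11 (142 in clone 3 without, others 93.1 to 98.4) and Ddx25 (140.2 in clone 2 without, others 208 to 219.9). Clone 3 without ascorbic acid held 4 of these 8 values, all high and all at signals of 186 or less. Among other named genes, Twist1 read 161 in clone 2 with ascorbic acid (others 212 to 217) and Dppa3 1616 in clone 2 without (others 914 to 983). Of 104 groups tested, 10 held such a value.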

How the results depend on the processing

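Under all 20 alternative limma settings 0 germline genes and 0 of the wider germline and regulator lists passed, and the smallest adjusted p of a germline gene was 0.607. The median difference of the germline genes stayed between -0.088 and -0.0068. The count over all genes was 1 without the trend and 1 with robust estimation, against 3; it was 2 to 4 under the others. With quantile normalization, which would be the main setting if array medians were compared on log2(signal), 2 genes passed over all, 0 of them germline genes, and the germline median was -0.039. Pou5f1, Nanog and Dppa5a were then at -0.083, -0.081 and -0.047, against -0.14, -0.12 and -0.25. Germline genes above the limit in all clones were 12 at the 60% quantile (a signal of 224.5) and 8 at the limit set by other tissues, against 21 at the dim limit. Leaving out each clone, chosen after the data were seen, gave 21 to 22 and, at the tissue limit, 8 to 10.

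Of 491 values of single germline genes 474 kept their sign and 17 turned, in 8 genes whose main differences lay between -0.068 (Hormad1) and 0.17 (Smc1b); the cause was not tested. Stk31 (0.00096) turned to -0.038 with the mean of its probe sets, -0.077 without _s_at and _x_at probe sets and -0.031 with array weights. With the same 2 settings Smchd1 turned to -0.029 (mean of probe sets) and Dppa3 to 0.00875 (array weights). Leaving out each clone gave -0.092 to 0.12 for Stk31, -0.13 to 0.013 for Tex14, -0.024 to 0.14 for Dmrtb1, -0.0219 to 0.074 for Tdrd12, -0.18 to 0.065 for Hormad1 and -0.035 to 0.31 for Slc25a31. It gave -0.16 (without clone 3 derived without ascorbic acid) to 0.39 for Smc1b, -0.14 to 0.017 for Mov10l1 and -0.12 to 0.15 for Dppa3.

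Clones of the same number did not deviate together (correlations -0.17 to 0.012). The correlations do not settle whether such clones share an embryo, which the labels do not give. With the replicate block 3 genes passed over all and 0 germline genes. The number of arrays limits the precision, and signals under the dim limit carry little information on expression.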
